A study of Rattus norvegicus with 40 samples.

Results

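S100a8, S100a9, Lcn2 and Mpo encode abundant proteins of neutrophils and other blood myeloid cells, and they were followed here as 4 of the 32883 Ensembl gene IDs counted in a rat microglia series. They were taken by ID, as ENSRNOG00000011557 (S100a8), ENSRNOG00000011483 (S100a9), ENSRNOG00000013973 (Lcn2) and ENSRNOG00000008310 (Mpo), by a rule that used no measured value. Earlier results of these data were known when the genes were chosen. The count table holds IDs only, so the names rest on this pairing and not on the files. All 4 had reads enough to be among the 14832 genes tested over all libraries.

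The cells came from Sprague Dawley rats aged 8 weeks, offspring of dams kept in intermittent hypoxia (air cycling between 10.5% and 21% oxygen) or in intermittent normoxia (21% oxygen throughout) for 8 hours a day, at 15 cycles an hour, on gestational days 10 to 21. Birth and later growth took place in normal housing in every group. The 8 groups, with 5 libraries each, were female hypoxia cord, male hypoxia cord, female normoxia cord, male normoxia cord, and the medulla of the same 4 kinds of animal; cord means the cervical segments C3 to C6. Both regions were taken from each of 20 animals, numbered 1 to 5 in each group by the replicate number of the labels, which do not say which male and female shared a litter.

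Cells were captured with an antibody to CD11b on magnetic beads. CD11b, an integrin chain, is carried by microglia, the resident macrophages of the central nervous system, and also by neutrophils and monocytes of the blood, so such beads can hold both. The labels call every library microglia. Markers of microglia, neutrophils and other cells could not be looked up, because no table used here pairs the Ensembl IDs with names, and the part of other cells in any result was not tested. In bulk RNA, fewer cells of a type and less RNA per cell cannot be told apart.

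S100a8 and S100a9 are small calcium-binding proteins that join as calprotectin, a complex that fills much of the neutrophil cytosol, withholds zinc and manganese from microbes and signals through Toll-like receptor 4 when released. Lcn2, lipocalin 2, binds bacterial siderophores and so keeps iron from bacteria; it is stored in the specific granules of neutrophils, and inflamed astrocytes and epithelia make it too. Mpo, myeloperoxidase, is the haem enzyme of azurophil granules that makes hypochlorous acid, and its transcript is highest in immature marrow cells.

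S100a8 and S100a9 lie beside each other on rat chromosome 2, with 0 other genes starting between them in the RefSeq gene table (GRCr8). Because the 4 genes varied together, as described further on, promoter windows are shown for the 3 of them in RefSeq's promoter table (GRCr8), S100a9, Lcn2 and Mpo, from 250 bases before the annotated start to 50 after it, 5′ to 3′. Capitals mark matches on either strand to 4 letter patterns: TATAAA (the basal promoter element), TTNNGCAA (C/EBP-like), GAGGAA (the core bound by PU.1) and, as an NF-kappaB-like pattern, GGG followed after any 5 bases by CC.
S100a9, chr2:178490573-178490872, minus strand: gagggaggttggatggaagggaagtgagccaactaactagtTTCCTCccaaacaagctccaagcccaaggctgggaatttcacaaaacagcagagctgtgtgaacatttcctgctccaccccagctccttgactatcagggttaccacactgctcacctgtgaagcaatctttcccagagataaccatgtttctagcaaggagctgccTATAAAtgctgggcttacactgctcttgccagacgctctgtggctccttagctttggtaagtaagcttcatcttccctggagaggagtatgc
Lcn2, chr3:36081731-36082030, minus strand: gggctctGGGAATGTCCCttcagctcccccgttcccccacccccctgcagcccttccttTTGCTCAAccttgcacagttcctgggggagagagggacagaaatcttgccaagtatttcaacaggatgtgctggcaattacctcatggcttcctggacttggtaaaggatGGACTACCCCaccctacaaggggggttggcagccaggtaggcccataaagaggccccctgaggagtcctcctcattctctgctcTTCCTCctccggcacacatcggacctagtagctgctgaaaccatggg
Mpo, chr10:73092152-73092451, plus strand: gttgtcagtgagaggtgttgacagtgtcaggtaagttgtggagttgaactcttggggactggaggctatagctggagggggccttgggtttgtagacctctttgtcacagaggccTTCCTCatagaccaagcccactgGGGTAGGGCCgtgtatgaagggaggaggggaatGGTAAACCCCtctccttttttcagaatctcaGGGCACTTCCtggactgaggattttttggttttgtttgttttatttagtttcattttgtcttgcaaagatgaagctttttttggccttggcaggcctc
Positions are those of a match's leftmost base, with the annotated start as 0. TATAAA was found in the S100a9 window alone among these 3, at -42, and in 14.2% of 33469 promoters of the table. TTNNGCAA was found only for Lcn2, at -191, against 10.6% of all promoters. GAGGAA, read on the opposite strand as TTCCTC, was found at -209 for S100a9, at 3 for Lcn2 and at -135 for Mpo, and 27.6% of all promoters hold it. The NF-kappaB-like pattern matched at -243, -242 and -81 for Lcn2, where the first 2 overlap, and at -112, -79 and -48 for Mpo; 47.3% of all promoters hold a match. A match describes the letters and says nothing of binding.

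Library totals ran between 6061346 and 24039411 reads. The smallest total, that of the medulla of female hypoxia animal 3, came with 13379 genes detected, fewer than the 15094 to 18339 of the other libraries. The fold changes and correlations it enters are also given without it, as are the ratio tests of Lcn2 and Mpo in the female medulla. The labels give no batch. In the female cord, totals ran between 13570283 and 20650051 reads under hypoxia and between 8818241 and 13327037 under normoxia. In the male medulla they ran between 10752151 and 13299310 under hypoxia and between 17741844 and 24039411 under normoxia. Depth thus did not overlap between the exposures there, and its part in those comparisons was not tested. No 2 libraries of a group agreed within sampling noise. Levels are given in CPM, reads scaled by the plain library total, which ignores gene length, so levels are compared between libraries and never between genes.

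In female hypoxia offspring, the calprotectin genes S100a8 and S100a9 were higher in cord than in medulla in 5 of 5 animals, by log2 fold changes of 2.94 ± 0.79 and 2.45 ± 0.78 (SE). They were the 2 members called in that group, where calls were counted at an edgeR adjusted p under 0.05 with the animal as a block. Of all genes tested, 25.2% were called there and 15.2% were called as higher in cord. That is 2253 of 3737 calls, a split that library totals alone, with no TMM factors, turned to 1537 of 3940, with both members still called. In a fit of these 10 libraries alone, 86 of 13337 genes were called, S100a8 among them and S100a9 not, so the share of all genes depends on the fit. In the other 3 groups of animals no member was called, and the gap between regions differed in direction from animal to animal, except for Mpo in male hypoxia offspring.

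S100a8 in female hypoxia animals 1 to 5 stood at 313, 388, 394, 180.2 and 117 CPM in cord, against 62.1, 106, 13, 22.1 and 23.6 CPM in medulla. The highest medulla value lay below the lowest cord value, so the groups did not overlap. How many of all genes did so was not counted, while 25.2% of them were called here. The S100a8 mean was 278 ± 125 CPM in cord and 45.4 ± 38.8 CPM in medulla (SD, n = 5 each), with an edgeR adjusted p of 0.0100. Within animals the cord level was 3.66 to 30.2 times that of the medulla, the largest ratio being that of animal 3 with the shallow medulla library. Without that animal the log2 fold change was 2.54 and the adjusted p 0.0344, and leaving out each of the 5 animals in turn gave adjusted p between 0.0148 and 0.0352.

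S100a9 in the same animals had 488, 666, 667, 307 and 197 CPM in cord, against 279, 187, 15.3, 77.7 and 40.4 CPM in medulla. Every animal was higher in cord, although the medulla of animal 1 stood above the cord of animal 5. The means were 465 ± 211 CPM in cord and 119.9 ± 110.4 CPM in medulla (SD, n = 5 each), and the edgeR adjusted p was 0.0269. The call was lost without animal 2 (adjusted p = 0.0517), without animal 3 (0.0875; log2 fold change 1.89) and without animal 4 (0.0617), and with limma voom (0.128). An exact sign-flip test over 5 animals cannot fall below p = 0.0625, the value it gave for S100a8, S100a9 and Lcn2 alike.

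Lcn2, the siderophore-binding lipocalin, had 89.4, 15.1, 52.4, 38.7 and 30.8 CPM in the cord of female hypoxia animals, against 37.7, 14.5, 2.80, 17.8 and 7.49 CPM in their medulla. All 5 animals stood higher in cord, animal 2 by only 1.04 times. The log2 fold change of 1.70 ± 0.83 (SE) had an edgeR adjusted p of 0.136; without animal 3 it was 1.28 (adjusted p = 0.313).

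Mpo in these animals had 3.17, 1.61, 8.09, 4.74 and 5.76 CPM in cord, against 14.1, 6.03, 0, 3.4 and 4.32 CPM in medulla. Animals 3, 4 and 5 were higher in cord and animals 1 and 2 higher in medulla. The medulla of animal 3 held 0 Mpo reads, which at its depth allows a level of up to 0.495 CPM (3 reads; counting error only). The fitted log2 fold change was 0.03 ± 1.19 (SE), so a sizeable difference in either direction is within its error, and without animal 3 it was -0.62.

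**Figure D1:**
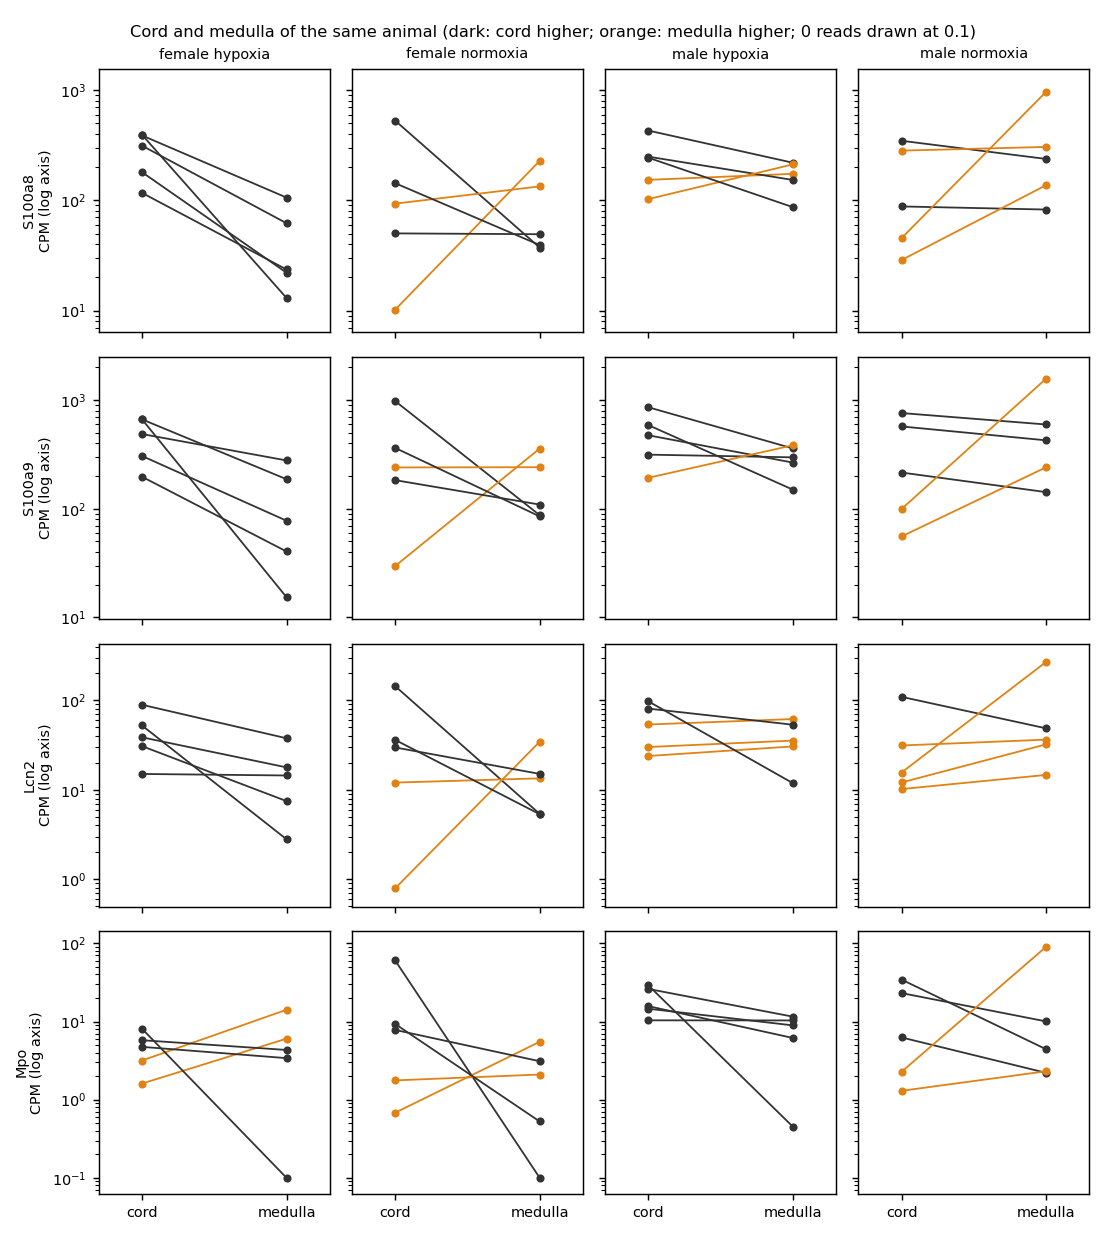
CPM (log axis) of S100a8, S100a9, Lcn2 and Mpo in the cord (left) and medulla (right) of each animal, with a line per animal, in 4 columns of 5 animals; dark lines are higher in cord and orange lines higher in medulla, and 0 reads are drawn at 0.1. All lines of S100a8, S100a9 and Lcn2 fall towards the medulla in the female hypoxia column, while the other columns hold lines of both directions for these 3 genes.

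Male hypoxia animals 1 to 5 had 153, 429.6, 249, 103 and 244 CPM of S100a8 in cord, against 174, 219, 153, 212 and 86.8 CPM in medulla. Their S100a9 was 315, 861, 475, 193 and 589.7 CPM in cord, against 298, 359.5, 266, 384 and 150.0 CPM in medulla. Cord was higher in 3 of 5 animals for S100a8 and in 4 of 5 for S100a9, and animal 4 was higher in medulla for both. Lcn2 came to 23.9, 53.8, 80.9, 30.1 and 97.6 CPM in cord, against 30.6, 61.9, 53.5, 35.5 and 11.9 CPM in medulla, with 2 of 5 animals higher in cord. Mpo came to 10.4, 15.7, 26.1, 14.6 and 29.0 CPM in cord, against 10.3, 6.16, 11.5, 8.93 and 0.451 CPM in medulla. Mpo was thus the higher in the cord of all 5 males, though barely so in animal 1, and the exact sign-flip p was 0.0625, the smallest that 5 animals allow. The log2 fold changes were 0.41 ± 0.74 for S100a8, 0.66 ± 0.74 for S100a9, 0.50 ± 0.81 for Lcn2 and 1.49 ± 1.12 for Mpo (SE), with edgeR adjusted p between 0.455 and 0.782.

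Female normoxia animals 1 to 5 had 529, 93.4, 10.2, 143 and 50.2 CPM of S100a8 in cord, against 37.3, 134, 228, 39.3 and 49.3 CPM in medulla. Their S100a9 was 981, 240.3, 29.7, 364 and 184 CPM in cord, against 87.3, 242, 358, 85.1 and 109 CPM in medulla. Animals 1 and 3 were opposites: S100a8 in animal 1 was 14.2 times as high in cord as in medulla, and in animal 3 it was 22.4 times as high in medulla as in cord. Lcn2 came to 144, 12.1, 0.794, 36.2 and 29.8 CPM in cord, against 5.39, 13.5, 34.5, 5.34 and 15.1 CPM in medulla. Mpo came to 60.4, 1.76, 0.680, 9.30 and 7.80 CPM in cord, against 0, 2.1, 5.50, 0.526 and 3.10 CPM in medulla, where 0 reads in animal 1 allow up to 0.190 CPM. All 4 genes followed the same pattern over animals, high in the cord of animal 1 and low in that of animal 3. Their log2 fold changes were 0.30 ± 0.90 for S100a8, 0.72 ± 0.86 for S100a9, 1.02 ± 1.00 for Lcn2 and 1.74 ± 1.40 for Mpo (SE), with edgeR adjusted p between 0.447 and 0.860. Each rested on single animals: in the same order they were -0.55, 0.0003, 0.09 and 0.60 without animal 1, and 1.18, 1.51, 1.97 and 2.87 without animal 3, with no call either way.

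Male normoxia animals 1 to 5 had 347, 88.1, 28.8, 282 and 45.4 CPM of S100a8 in cord, against 238, 82.6, 137, 305 and 964 CPM in medulla. Their S100a9 was 573, 216, 55.6, 761 and 99.4 CPM in cord, against 427, 142, 241, 597 and 1577 CPM in medulla. The medulla of animal 5 held the highest S100a8 and S100a9 levels of all 40 libraries. Lcn2 came to 109.6, 10.2, 12.1, 31.3 and 15.6 CPM in cord, against 48.7, 14.7, 32.3, 36.4 and 269 CPM in medulla. Mpo came to 34.4, 6.26, 1.3, 23.1 and 2.27 CPM in cord, against 4.42, 2.20, 2.31, 10.03 and 90.2 CPM in medulla. That library again led, with the highest Lcn2 and Mpo of the series. The log2 fold changes were -1.03 ± 0.82 for S100a8, -0.77 ± 0.81 for S100a9, -0.87 ± 0.86 for Lcn2 and 0.45 ± 1.28 for Mpo (SE), with edgeR adjusted p between 0.492 and 0.883. Without animal 5 they were -0.35, -0.10, -0.21 and 1.34 (adjusted p between 0.609 and 0.968).

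By edgeR, 0 of 4 members were called in male hypoxia, female normoxia and male normoxia animals, against 8.2%, 8.1% and 7.11% of all genes. There 0 members had an unadjusted p under 0.05, against 23.5%, 26.5% and 22.5% of all genes. DESeq2 and limma voom also called 0. Averaged over the 4 groups of animals, cord over medulla gave log2 fold changes of 0.66 ± 0.40 for S100a8, 0.77 ± 0.40 for S100a9, 0.59 ± 0.44 for Lcn2 and 0.93 ± 0.63 for Mpo (SE). None of the 4 was called (edgeR adjusted p between 0.178 and 0.363, 0 called by DESeq2 and 0 by limma voom), while 25.2% of all genes were by edgeR. By edgeR 0 of 4 had an unadjusted p under 0.05, against 35.9% of all genes. S100a9 was called without female normoxia animal 3 (adjusted p = 0.0466). For S100a8, S100a9, Lcn2 and Mpo the means were 0.44, 0.59, 0.36 and 0.65 without female normoxia animal 1. They were 0.83, 0.93, 0.76 and 1.16 without male normoxia animal 5, and 0.57, 0.64, 0.50 and 0.78 without female hypoxia animal 3, with none called. Over the 20 animals, cord was the higher region in 13 for S100a8, in 15 for S100a9, in 11 for Lcn2 and in 14 for Mpo. All 4 genes leaned to the same region in 13 animals, to the cord in 9 of them and to the medulla in 4.

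Whether the gap between regions itself differed by exposure was tested as an interaction. In females it was larger under hypoxia than under normoxia by 2.64 ± 1.17 (log2, SE) for S100a8 and by 1.73 ± 1.14 for S100a9, with edgeR adjusted p of 0.112 and 0.293. In males the differences were 1.45 ± 1.10 and 1.43 ± 1.10 (adjusted p = 1.00 for both), and over both sexes 2.04 ± 0.80 and 1.58 ± 0.79 (adjusted p of 0.143 and 0.255). By edgeR 0 of 4 members were called in the 3 tests, against 21.1% of all genes in females, 0% in males and 4.07% over both sexes. S100a8 had an unadjusted p under 0.05 in females (0.0351) and over both sexes (0.0191), as no other member did, and no member had in males. Of all genes, 35.3% had so in females and 21.6% over both sexes, so 1 of 4 members is near the background. DESeq2 called S100a8 in females (adjusted p = 0.0387) and over both sexes (0.0431), where it called 4140 and 1489 of 14832 genes. It called 0 members in males, and limma voom called 0 in each. Leaving out each female in turn gave 1.75 to 3.48 for S100a8 (adjusted p between 0.0350 and 0.239) and 0.93 to 2.44 for S100a9 (between 0.144 and 0.549). Of these the S100a8 value without female normoxia animal 1 was the only call by edgeR, and without female hypoxia animal 3 the values were 2.21 and 1.14. Over both sexes, leaving out each animal gave 1.59 to 2.46 for S100a8 and 1.18 to 1.93 for S100a9, with no call, and 1.82 and 1.28 without female hypoxia animal 3. In males the values were 0.76 for both genes without normoxia animal 5. A call in female hypoxia animals and none elsewhere is therefore not a shown difference between the groups by edgeR.

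**Figure D2:**
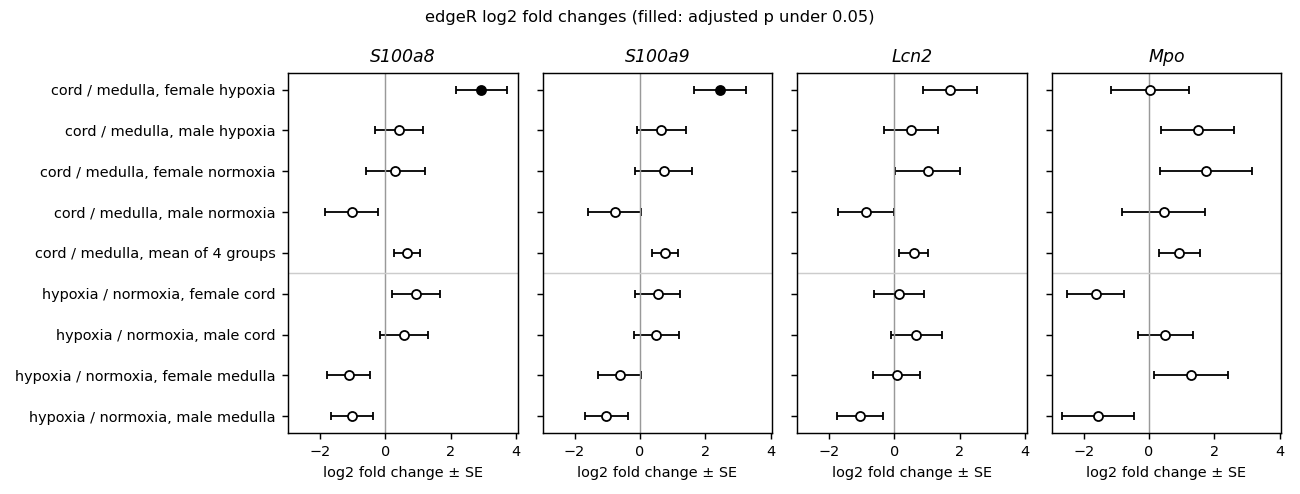
edgeR log2 fold changes with their SE (horizontal axis) for S100a8, S100a9, Lcn2 and Mpo, for cord over medulla in each group of animals and over their mean, and for hypoxia over normoxia in each sex and region; filled points have an adjusted p under 0.05. Filled points are those of S100a8 and S100a9 in female hypoxia animals, at 2.94 and 2.45, and all other points are open.

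Set by exposure, the calprotectin genes and Lcn2 had higher hypoxia medians in cord in both sexes, and no member passed the test in any sex or region. The hypoxia and normoxia libraries overlapped for every member in all 4 comparisons. These comparisons use the same libraries as those between regions and are not separate evidence.

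S100a8 in the female cord had a median of 313 CPM in hypoxia libraries and of 93.4 CPM in normoxia libraries. The fold change was 0.92 ± 0.73 (log2, SE; edgeR adjusted p = 0.353). It turned on normoxia library 1, at 529 CPM: without it the log2 fold change was 2.07 and the adjusted p 0.0303. S100a9 differed by 0.54 ± 0.69, Lcn2 by 0.14 ± 0.77 and Mpo by -1.64 ± 0.87 in this comparison (edgeR adjusted p of 0.578, 0.912 and 0.153). Without that same normoxia library, Mpo differed by 0.06 and Lcn2 by 1.32. In the male cord the log2 fold changes were 0.56 ± 0.73, 0.50 ± 0.69, 0.67 ± 0.77 and 0.50 ± 0.84 for S100a8, S100a9, Lcn2 and Mpo, with edgeR adjusted p between 0.865 and 0.912.

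In the female medulla, S100a8 had a median of 23.6 CPM in hypoxia libraries and of 49.3 CPM in normoxia libraries, a log2 fold change of -1.12 ± 0.65 (SE; edgeR adjusted p = 0.402). S100a9 differed by -0.62 ± 0.65, Lcn2 by 0.07 ± 0.72 and Mpo by 1.28 ± 1.13 (adjusted p between 0.579 and 0.967). Without hypoxia library 3 the 4 values were -0.91, -0.35, 0.32 and 1.58, with no call. In the male medulla all 4 fold changes were negative, at -1.02 ± 0.65 for S100a8, -1.02 ± 0.65 for S100a9, -1.05 ± 0.72 for Lcn2 and -1.56 ± 1.10 for Mpo (adjusted p = 1.00 for each). Normoxia library 5 carried much of these: without it they were -0.16, -0.26, 0.23 and 0.66. By edgeR 0 of 4 members were called in the female cord, male cord, female medulla and male medulla, and at an unadjusted p under 0.05 there were 0 as well. Among all genes 32.8% were called in the female cord, and 0% in each of the other 3. At an unadjusted p under 0.05 were 43.3% of all genes in the female cord and 6.19% in the male cord. In the medulla 15.4% were in females and 0.862% in males. DESeq2 and limma voom called 0 members in all 4.

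**Figure D3:**
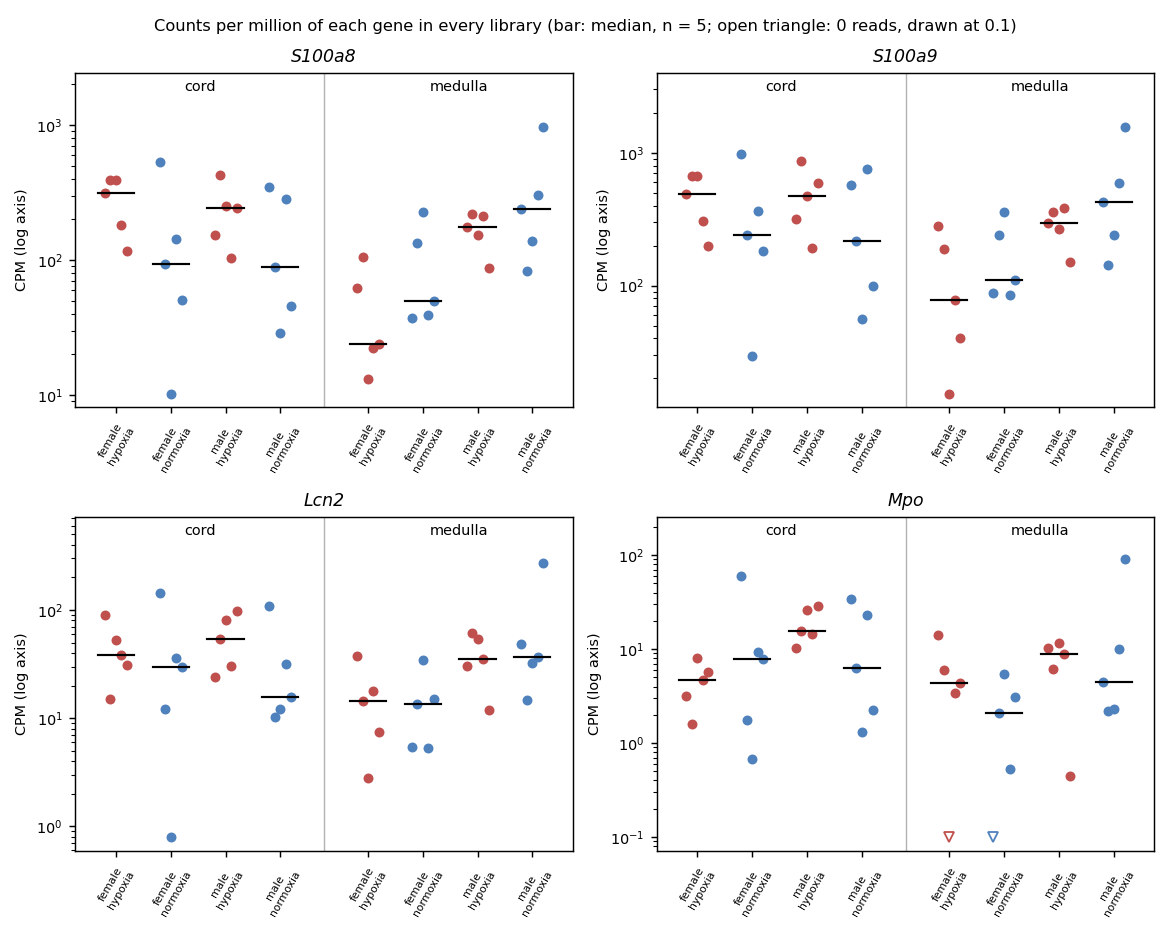
CPM (log axis) of S100a8, S100a9, Lcn2 and Mpo in each of the 40 libraries, by group, with red points for hypoxia, blue points for normoxia, bars at group medians (n = 5) and open triangles for 0 reads. Within most groups the points spread over a wide range, as for S100a8 in the female normoxia cord, where the highest library was 51.8 times the lowest.

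Between the sexes, the fitted fold changes of all 4 members were below 0, female over male, in the medulla under both exposures, and that of Mpo was so in the cord under hypoxia; none of them passed the test over all genes. S100a8 in hypoxia medulla ran between 13 and 106 CPM in females and between 86.8 and 219 CPM in males. The log2 fold change, female over male, was -1.92 ± 0.67 (SE), with an unadjusted p of 0.0098 and an edgeR adjusted p of 0.294. S100a9, Lcn2 and Mpo differed by -1.34 ± 0.66, -1.31 ± 0.73 and -0.45 ± 1.09, with adjusted p of 0.360 and above. Without female library 3 the 4 values were -1.70, -1.07, -1.07 and -0.15, and the adjusted p for S100a8 was 0.642. In exact permutation tests the p-values were 0.0159, 0.0397, 0.0714 and 0.516 for S100a8, S100a9, Lcn2 and Mpo, before any correction, where 0.00794 is the smallest that 5 against 5 allows.

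In normoxia medulla the log2 fold changes, female over male, were -1.81 ± 0.66 for S100a8, -1.75 ± 0.67 for S100a9, -2.44 ± 0.75 for Lcn2 and -3.28 ± 1.19 for Mpo (SE). All 4 had an unadjusted p under 0.05, as had 4.15% of all genes, and all 4 had an adjusted p of 1.00. Male normoxia library 5 again weighed in: without it the changes were -0.95, -0.98, -1.16 and -1.07, with unadjusted p between 0.0667 and 0.293. Exact permutation p-values with all libraries were 0.0635, 0.0714, 0.0476 and 0.111.

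Mpo in the hypoxia cord ran between 1.61 and 8.09 CPM in females and between 10.4 and 29.0 CPM in males, with no overlap. The means were 4.67 ± 2.48 CPM in females and 19.2 ± 8.0 CPM in males (SD, n = 5 each). The log2 fold change was -1.92 ± 0.87 (SE), with an unadjusted p of 0.0384 and an edgeR adjusted p of 0.122. A fit of these 10 libraries alone gave an adjusted p of 0.00986, where 1887 of 12803 genes were called. The exact permutation p was 0.00794, the smallest this design allows. How many of all genes did not overlap between the sexes here was not counted. In the normoxia cord the 2 sexes overlapped for Mpo, at 0.680 to 60.4 CPM in females and 1.3 to 34.4 CPM in males.

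By edgeR 0 of 4 members were called by sex in the hypoxia cord, normoxia cord, hypoxia medulla and normoxia medulla, where 19.6%, 6.56%, 0.0777% and 0.0707% of all genes were. The members with an unadjusted p under 0.05 numbered 1, 0, 1 and 4 in that order, against 34.4%, 23.5%, 14.3% and 4.15% of all genes. DESeq2 and limma voom called 0 in each. The test of whether the exposure difference itself differed between sexes called 0 of 4 members in cord and in medulla, where 23.2% and 0% of all genes were called. Neither DESeq2 nor limma voom called any of the 4. At an unadjusted p under 0.05 edgeR counted 0, against 37.6% of all genes in cord and 6.21% in medulla.

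The 4 genes varied more between animals of a group than most genes tested did, and they varied together. The SD of log2 CPM around group means over the 40 libraries was 1.27 for S100a8, 1.26 for S100a9, 1.46 for Lcn2 and 2.11 for Mpo, against a median of 0.40 over 14832 genes. Ranked over all genes tested, these stood at percentiles 87.9, 87.5, 92.9 and 99.2, a description in which genes of few reads also score high. Among the 500 genes nearest to each in mean level they stood at percentiles 100, 100, 99.8 and 99.4. In the cord alone the SDs were 1.43, 1.36, 1.67 and 1.67, and in the medulla 1.09, 1.15, 1.22 and 2.48. The 2 medulla libraries with 0 Mpo reads entered at log2 CPM of -4.96 and -3.36, values set by the prior of 0.5 reads. The Mpo spread without them was not computed.

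Across the 20 animals, S100a8 and S100a9 correlated at r = 0.98 in cord (Spearman rho = 0.96) and at r = 0.96 in medulla (rho = 0.97). Each permutation p was 1e-05, the smallest that 100000 resamples give, and the adjusted p for r was 3.2e-05 over 16 relations. Without the 2 animals farthest from the median of S100a8, r was 0.96 in cord and 0.95 in medulla. S100a9 and Lcn2 gave r = 0.80 in cord (rho = 0.69; adjusted p for r 0.00014) and 0.90 in medulla (rho = 0.86; 3.2e-05), and 0.62 and 0.82 without the 2 farthest animals.

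Lcn2 and Mpo, both granule proteins, gave r = 0.79 in cord (rho = 0.74; adjusted permutation p for r 6.86e-05) and 0.84 in medulla (rho = 0.82; 3.2e-05), and 0.69 and 0.73 without the 2 farthest animals. S100a8 and Mpo were the loosest pair, with r = 0.67 in each region (rho = 0.58 in cord and 0.63 in medulla; adjusted p for r 0.00176 and 0.00164), and 0.43 and 0.45 without the 2 farthest animals. Taken as deviations from group means, S100a8 and Mpo gave r = 0.80 in cord, above the 0.78 of S100a9 and Lcn2. In medulla they gave 0.75 by that measure and remained the loosest pair. S100a8 with Lcn2 and S100a9 with Mpo lay between r = 0.71 and 0.86 in the 2 regions (rho between 0.60 and 0.80; adjusted permutation p for r between 3.2e-05 and 0.0008), and between 0.49 and 0.75 without the 2 farthest animals. Without female hypoxia animal 3, the 6 pairs had r between 0.68 and 0.98 in cord and between 0.59 and 0.96 in medulla. Members measured in a library share its depth and its cells.

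Between the regions of an animal no such relation passed the test. Cord against medulla of the same animal gave r = -0.29 for S100a8, -0.24 for S100a9, -0.17 for Lcn2 and -0.35 for Mpo, with adjusted permutation p between 0.167 and 0.454 and rho between -0.18 and -0.07. Without the 2 farthest animals r was between -0.22 and -0.01, and without female hypoxia animal 3 between -0.37 and -0.13. Taken as deviations from group means, Mpo gave r = -0.57 (rho = -0.61; adjusted p for r 0.0120), and -0.33 without female normoxia animals 1 and 3.

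**Figure D4:**
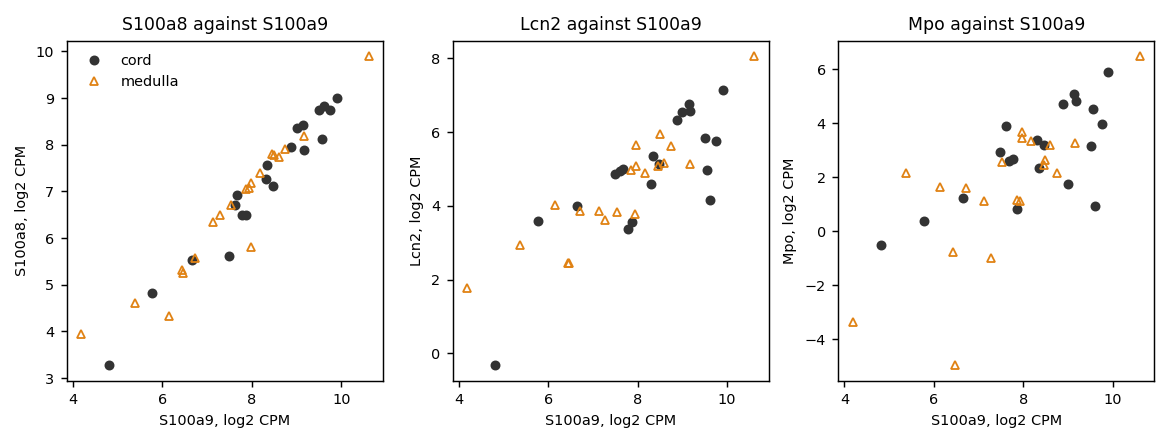
log2 CPM of S100a8, Lcn2 and Mpo (vertical axes) against log2 CPM of S100a9 (horizontal axis) in the 20 cord libraries (filled circles) and 20 medulla libraries (open triangles). S100a8 follows S100a9 closely in both regions (r = 0.98 in cord and 0.96 in medulla), while Lcn2 and Mpo scatter more widely.

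S100a8 and S100a9 were each other's closest match among all 14832 genes tested, at r = 0.96 for deviations from group means over the 40 libraries. The next 2 IDs by likeness to S100a9 outside the members were ENSRNOG00000017469 (r = 0.96), at 17.2 to 424 CPM, and ENSRNOG00000036645 (r = 0.92), at 0 to 29.3 CPM. Genes with r of at least 0.8 numbered 37 for S100a8, 39 for S100a9, 56 for Lcn2 and 10 for Mpo. The points share library, depth and cells, so no p is given.

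Reads of S100a8 per read of S100a9 are a ratio within a library that does not depend on its depth. The ratio, taken after its values were seen, was 64.2%, 58.3%, 59.0%, 58.8% and 59.3% in female hypoxia cord, against 53.9%, 38.9%, 34.4%, 39.4% and 27.4% in female normoxia cord. Every hypoxia value lay above every normoxia value. The log2 difference was 0.66, with an exact permutation p of 0.00794 and an adjusted p of 0.119 over 15 such tests, so it did not pass. In the male cord the ratio averaged 49.1% ± 4.7 under hypoxia and 47.2% ± 9.3 under normoxia (SD, n = 5 each). In female hypoxia medulla it ran between 22.3% and 84.9%, wider than the 42.7% to 63.7% of female normoxia medulla; the 84.9% is that of the shallow library 3, from 79 reads of S100a8 and 93 of S100a9, and the other 4 ran between 22.3% and 58.4%.

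Lcn2 reads per S100a9 read were 13.5%, 7.73%, 18.3%, 23.0% and 18.5% in female hypoxia medulla, against 6.17%, 5.57%, 9.63%, 6.28% and 13.8% in female normoxia medulla. The groups overlapped, and the log2 difference of 0.97 had an exact permutation p of 0.0397 and an adjusted p of 0.298; without hypoxia library 3 it was 0.90, with p = 0.0794. Mpo reads ran between 0% and 10.7% of S100a9 reads over the 40 libraries. In the female medulla the Mpo log2 difference, hypoxia over normoxia, was 2.42 (exact permutation p = 0.0873, adjusted p = 0.437). Without hypoxia library 3 it was 3.08, with an exact permutation p of 0.0159 and an adjusted p of 0.119, so it did not pass. Without normoxia library 1, which held 0 Mpo reads, it was 1.39 (exact permutation p = 0.175, adjusted p = 0.552).

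**Figure D5:**
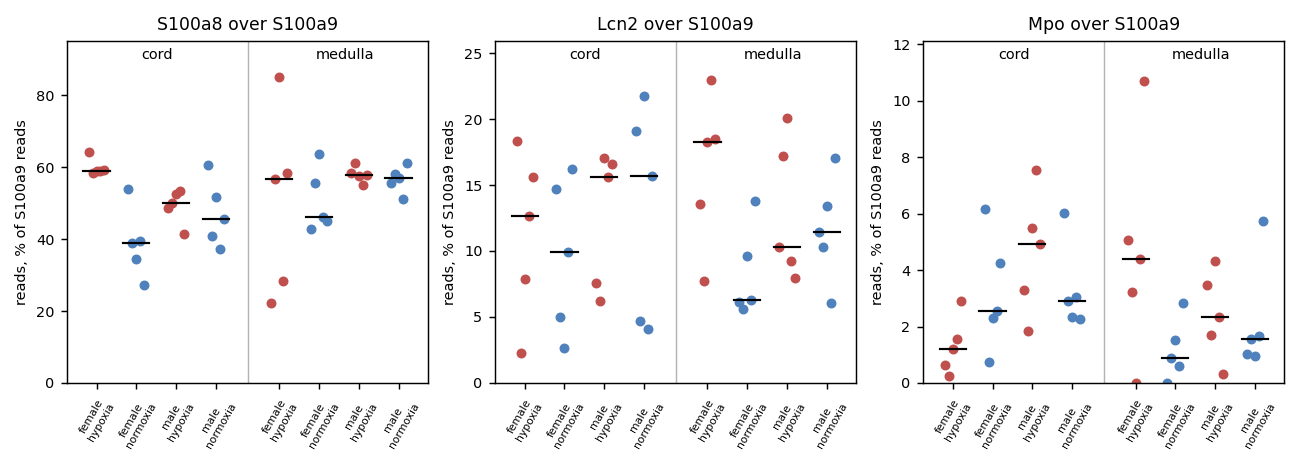
Reads of S100a8, Lcn2 and Mpo as a percentage of S100a9 reads (vertical axes) in each library, by group, with red points for hypoxia, blue points for normoxia and bars at group medians (n = 5). In the first panel the female hypoxia cord libraries sit between 58.3% and 64.2%, above all female normoxia cord libraries (27.4% to 53.9%).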

How the data were processed

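RNA of CD11b-selected cells was measured in 40 libraries of 20 rats. The deposited table holds whole-number read counts per Ensembl gene ID; the submitters' processing notes name build rn6 and the tools TopHat2 2.1, HTSeq and edgeR. For annotation, strand setting and filters the entry is "not given in the sources used here"; reads shared with overlapping, antisense or near-identical genes cannot be told apart. No row names anything but a gene, and every column was matched to a sample by its label.

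The 4 genes and all lists were chosen with earlier results of these data known. 0 of 47357 rows of the RefSeq gene table carry an Ensembl ID, so the cell marker and partner lists were not used, and the naming rule (the 4 members, and the 2 IDs most like S100a9) printed IDs.

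Tests used edgeR 4.0.16 (quasi-likelihood F test) in R 4.3.3, with TMM factors and filterByExpr (minimum count 10), and Benjamini-Hochberg adjustment over all genes tested. Exposure and sex were fitted in the 20 libraries of a region (13593 genes in cord, 14151 in medulla), and region in all 40 (14832 genes) with the animal as a block. Both regions of a number come from 1 animal, per the labels' titles and the series design; deviations from group means correlated between the regions of an animal at r of 0.051 to 0.369 over genes (positive in 20 of 20). The replicates of a group are separate animals. The dams were exposed, and the labels do not tie replicate numbers to litters. Whether animals of a group shared a dam cannot be told, so the exposure tests count animals and not dams. Log2 CPM for correlations, spread and permutation tests (two-sided; SciPy 1.17.1, Python 3.11.15) used TMM-scaled totals and a prior of 0.5 reads, and floors of 3 reads cover counting error only. Fits were tested on simulated data. DESeq2 1.42.0, limma 3.58.1 (voom with quality weights), other scalings, filters, blocks and left-out libraries were tried as alternatives.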

Additional observations from a re-analysis of the deposited data

Results flagged for a closer look

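Each gene was screened in each of the 8 groups for a single library standing apart from the other 4 (its gap to the nearest library against 0.71 of the group's range), and 7 of 32 group values met the rule. Chance flags about 1 in 20 groups of independent, normal values; these are skewed CPM of 4 genes that vary together in the same libraries, so the 7 are not separate events and no chance count applies. 3 libraries held all of them, all from normoxia animals.

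The medulla of male normoxia animal 5 stood apart for S100a8 (964 CPM, next 305), Lcn2 (269 CPM, next 48.7) and Mpo (90.2 CPM, next 10.03). The cord of female normoxia animal 1 stood apart for S100a8 (529 CPM, next 143), Lcn2 (144 CPM, next 36.2) and Mpo (60.4 CPM, next 9.30). The cord of male normoxia animal 1 stood apart for Lcn2 alone (109.6 CPM, next 31.3). For the first 2 libraries, fold changes by region, exposure and, in the medulla, sex are given in the results without them. What set these libraries apart was not tested.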

How the results depend on the processing

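Of 1323 alternative values for 87 results, 1269 kept their direction and side of the threshold, and 25, in 9 results, changed direction, 0 of them with p under 0.05 on either side. S100a8 in female hypoxia animals stayed called for cord over medulla in every alternative fit (limma voom adjusted p = 0.0499); only the exact sign-flip permutation test, at log2 3.01 for S100a8 and 2.58 for S100a9 (p = 0.0625 each), could not reach the threshold. S100a9 there lost its call with limma voom (1.80) and in its 10 libraries alone (2.45; adjusted p = 0.0921), so 1 member was called in each in place of 2. DESeq2 called 1 member in place of 0 for region by exposure in females (with 4140 of 14832 genes called) and over both sexes (with 1489). The 10-library fit called 1 in place of 0 for sex in the hypoxia cord (Mpo, with 1887 of 12803 genes called). The cause was not tested.

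Uncalled Mpo values changed direction with limma voom for exposure in female cord (0.0204) and male medulla (0.212) and for region in female hypoxia (-0.897) and male normoxia animals (-1.77), with RLE factors (-0.000609) and library totals alone (-0.101) in female hypoxia animals, and in the permutation test in male normoxia animals (-0.0615). With the animal block left out, so that regions were not paired, region gave -0.110 for Mpo in female hypoxia and -0.688 in male normoxia animals. The calls of S100a8 and S100a9 in female hypoxia animals stood. Whether replicate numbers pair the libraries across exposure or sex cannot be told from their correlations (r from -0.400 to 0.673, under 0.1 in part of every comparison). The regions of an animal, which are paired, had r over 0.1 in only 14 of 20. A replicate block on the numbers changed no member's call. On deviations from group means, Mpo in cord against medulla gave -0.566.

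Leaving out a library or animal moved exposure in female cord for S100a8 (0.612 to 2.07), Lcn2 (-0.239 to 1.32) and Mpo (-1.95 to 0.0647), in female medulla for Lcn2 (-0.421 to 0.660), and in male medulla for Lcn2 (-1.32 to 0.229) and Mpo (-1.85 to 0.659). It moved region in female hypoxia animals for S100a9 (1.89 to 2.80) and Mpo (-0.619 to 0.561), in male hypoxia for Lcn2 (-0.0111 to 0.724), in female normoxia for S100a8 (-0.552 to 1.18), in male normoxia for Mpo (-0.363 to 1.34) and over all groups for S100a9 (0.587 to 0.964). Counts of members called ran from 0 to 1 for exposure in female cord, 1 to 2 for region in female hypoxia animals, 0 to 1 for region over all groups and 0 to 1 for region by exposure in females. Library totals alone shifted the median of all genes by -0.157 for exposure in female cord. Counts of all genes called moved by over 1.5 times in places. For region, edgeR's 3737 in female hypoxia animals became 86 in their 10 libraries alone; 1216 in male hypoxia animals became 1986 with DESeq2, 2282 with limma voom and 525 in 10 libraries; 1201 in female normoxia animals became 2227, 4461 and 3141; and 1055 in male normoxia animals became 1848 with DESeq2 and 3312 with limma voom. Region by exposure over both sexes, at 604, became 1489 with DESeq2, 2327 with limma voom and 208 with no animal block. For sex, 892 in normoxia cord became 592 unfiltered, 1577 with DESeq2 and 122 in a fit of all 40 libraries, which also gave 992 in place of 2662 in hypoxia cord, 333 in place of 11 in hypoxia medulla, 1562 in place of 3155 for sex by exposure in cord, and 514 in place of 0 for exposure in female medulla (60 with DESeq2). DESeq2 gave 41 in place of 11 in hypoxia medulla and 16 in place of 10 in normoxia medulla (26 with limma voom). The other counts of 0 stayed at 3 or fewer. With the number as a block, exposure in female cord gave 4593 in place of 4458. Depth limits Mpo most, with 0 reads in 2 libraries.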
